A study of Mus musculus with 12 samples.

Results

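C1s1, which encodes the protease C1s of the classical complement pathway, was examined with 7 further complement genes in the mouse urogenital sinus: C1ra, C1qa, C1qb, C1qc, C3, C4b and Serping1. These 8 genes were found by symbol among the 56495 genes of the deposited table. C1s1 was selected on its measured FPKM, which stood at exactly 0 in some of these libraries, so the levels of C1s1 are a description and carry no test. The other 7 genes were named as parts of the same pathway, and their tests are not independent of results already known. The urogenital sinus is the embryonic chamber that forms the prostate and urethra in males and parts of the urethra and vagina in females. RNA was sequenced from sinuses taken at stage E18.5 with the bladder removed. There were 12 libraries, 3 for each sex of the wild type and 3 for each sex of the mutant. The mutant genotype was Inv(Itga6-nsi)d11lac, whose name places an inversion end at Itga6. The labels do not explain nsi or d11lac, do not say how many copies of the allele an embryo carried, and give no genotype beyond wild type for the controls. Nor do they say if each library of a group was made from its own embryo, and p-values therefore measure only library-to-library spread, which may be technical.

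The classical pathway starts when C1q, a bouquet of C1qa, C1qb and C1qc chains, binds antibody or altered surfaces. C1q carries the proteases C1r and C1s: C1r activates itself and then C1s, and C1s cleaves C4 and C2 to form the enzyme that cleaves C3. The C1 inhibitor, encoded by Serping1, inactivates C1r and C1s. Tissue macrophages are the main source of C1q, connective tissue cells make much of C1r, C1s and the C1 inhibitor outside the liver, and hepatocytes make most of the C3 and C4 of plasma.

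Levels are FPKM (fragments of a gene relative to its transcript length and to all mapped fragments of the library) divided by a size factor per library, called scaled FPKM below. Tests used limma on log2(scaled FPKM + 0.5), a scale that understates differences of low genes, and took in every gene that reached 1 FPKM in 3 or more libraries. A gene is said to be called when its Benjamini-Hochberg adjusted p over the 13904 genes tested was under 0.05. FPKM sums ran from 276713 to 401093, and FPKM carry no read counts, so the absolute depth is unknown. Depth relative to the deepest library ran from 0.812 to 1 in wild type and from 0.582 to 0.717 in mutant libraries, so genotype and depth cannot be told apart. In wild type male 1 and mutant males 1 and 3, Rn7sk (a small nuclear RNA) made up 12.2% to 14.9% of the FPKM sum, and it was listed at 0 in the other 9. The tissue label was matched by its epithelial markers: Krt5 ran from 17.4 to 141 scaled FPKM, Trp63 from 4.47 to 9.83, Foxa1 from 1.77 to 4.90 and Shh from 2.34 to 6.84.

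C1s1 and C1ra each have a near copy beside them on chromosome 6, C1s2 and C1rb, so the values of these genes can depend on how reads were divided within each pair. In the longest transcripts of the GENCODE M21 annotation of GRCm38, C1ra and C1rb agreed at 97.98% of aligned bases and C1s1 and C1s2 at 95.94%. Of the stretches of 50 bases in C1ra, 48.02% occur without a change in C1rb, against 24.27% for C1s1 in C1s2. For stretches of 100 bases the shares were 34.49% and 7.90%. Whether the authors' counting shared such reads between copies, and whether it used strand, is not given in the sources used here. The 4 sequences below come from the last exon of each gene and show how few bases separate the copies. Capitals mark the bases that differ within a pair.

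C1ra, exon 11, GRCm38 chr6:124522202-124522301, plus strand: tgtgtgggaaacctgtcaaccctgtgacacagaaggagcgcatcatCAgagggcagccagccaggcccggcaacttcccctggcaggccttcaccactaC
C1rb, exon 11, GRCm38 chr6:124580251-124580350, plus strand: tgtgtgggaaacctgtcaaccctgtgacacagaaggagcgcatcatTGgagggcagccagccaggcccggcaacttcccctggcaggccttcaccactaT
C1s1, exon 12, GRCm38 chr6:124531641-124531740, minus strand: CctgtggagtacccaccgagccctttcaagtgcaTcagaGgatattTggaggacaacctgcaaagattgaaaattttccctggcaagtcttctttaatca
C1s2, exon 11, GRCm38 chr6:124625863-124625962, minus strand: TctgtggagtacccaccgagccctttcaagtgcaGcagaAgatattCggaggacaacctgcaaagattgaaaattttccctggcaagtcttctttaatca

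In these 100 bases C1ra and C1rb differ at 3 positions and C1s1 and C1s2 at 4. The genes themselves lie, in the mm39 positions of the deposited table, at chr6:124489364-124500402 for C1ra, chr6:124507304-124519318 for C1s1, chr6:124547253-124558130 for C1rb and chr6:124601584-124613044 for C1s2.

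C1s1 (ENSMUSG00000038521, protein coding) was at or near 0 in wild type females and present in every other library. It was listed at 0 in wild type females 1 and 2 and at 0.0114 scaled FPKM in wild type female 3. Wild type males had 8.58, 4.45 and 2.503 scaled FPKM, mutant females 2.79, 3.06 and 2.90, and mutant males 2.34, 3.503 and 2.203. No wild type female overlapped any library of the other groups. The group means were 5.18 ± 3.10 in wild type males, 2.91 ± 0.135 in mutant females and 2.68 ± 0.714 in mutant males (scaled FPKM, SD, n = 3 each). The wild type males were the most spread and overlapped both mutant groups, and the 2 mutant groups overlapped each other, so no order among these 3 groups exceeds their spread. No fold is given against wild type females, because an exact 0 in a table without counts can be a failed estimate.

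The values near 0 are those on which C1s1 was selected, so counts of other genes with such values describe the table and support nothing about C1s1. Of 11957 genes with at least 1 FPKM in all 9 other libraries, C1s1 was the only one under 0.05 FPKM in all 3 wild type females. The same search found 0 genes for mutant females (of 12278), mutant males (of 12006) and wild type males (of 11941). Exact 0 values beside clear expression were more widespread: of 10214 genes that reached 5 FPKM in some library, 41 were listed at 0 in another, 12 of them protein coding. C1s1 was the only complement gene among these 41.

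**Figure D1:**
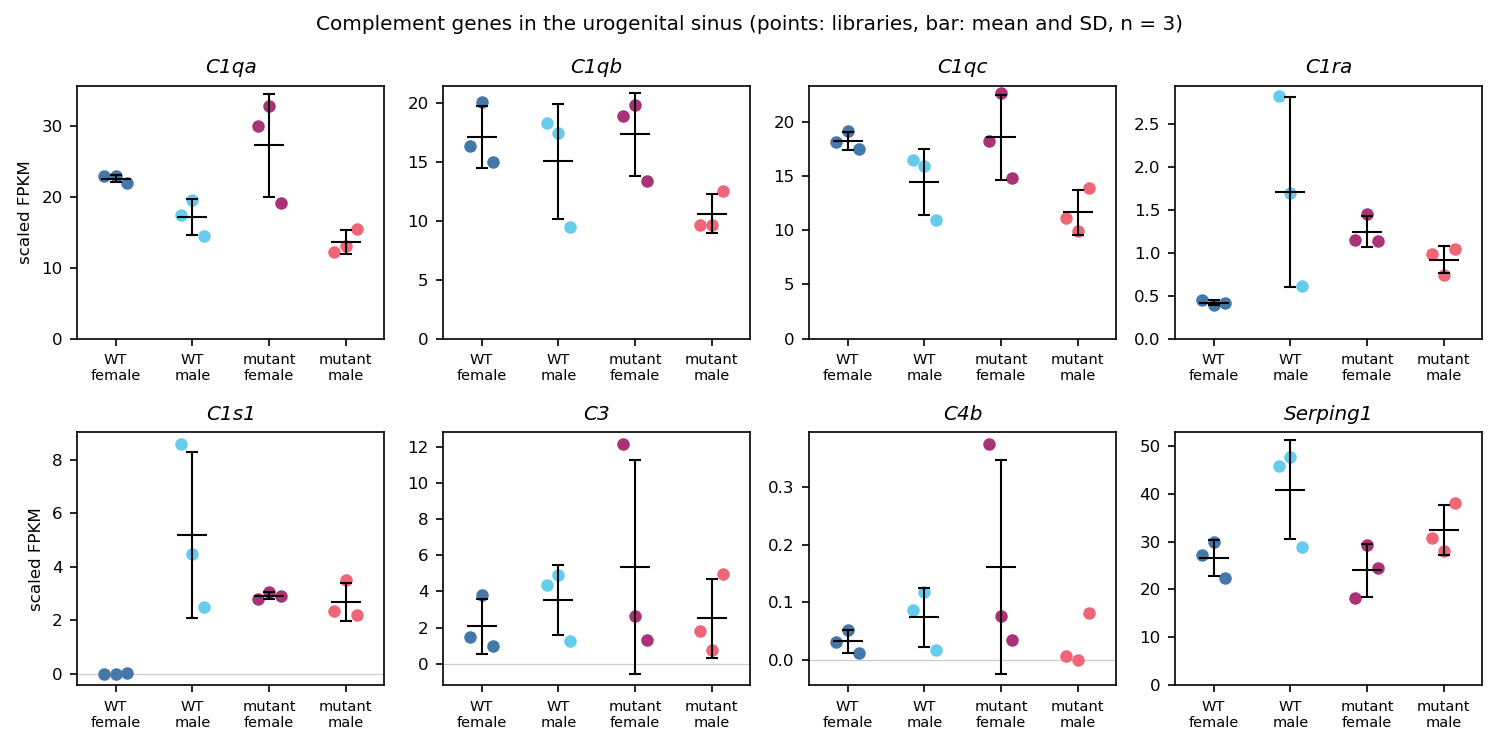
Scaled FPKM of the 8 complement genes in each of the 12 libraries (points, coloured by group), with the mean and SD of each group of 3 (bars, left out where a library of the group is listed at 0). The 3 wild type females sit at or near 0 for C1s1 while the other 9 libraries lie between 2.203 and 8.58; the C1q genes, C3 and Serping1 show no such gap.

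C1ra, the gene for C1r, was also lowest in wild type females, at 0.454, 0.390 and 0.411 scaled FPKM. Wild type males had 2.82, 1.69 and 0.608, mutant females 1.15, 1.45 and 1.13, and mutant males 0.978, 0.735 and 1.04. Every other library lay above the wild type females. In females, C1ra was 0.92 higher in mutants than in wild type on the log2 scale (SE 0.31, adjusted p = 0.0447). This was 1 of 13904 tests in a comparison where 28.0% of all genes were called, and it was lost under 16 of the 22 other settings and left-out libraries tried, among them the removal of any 1 library other than wild type males 1 and 3. In males the difference of mutant from wild type was -0.51 (adjusted p = 0.268), and over both sexes it was 0.21 (adjusted p = 0.47). Wild type males exceeded wild type females by 1.13 (adjusted p = 0.0792), and mutant males stood 0.30 below mutant females (log2 difference -0.30, adjusted p = 0.583). The mutant difference in males minus that in females was -1.43 (SE 0.43, unadjusted p = 0.00712, adjusted p = 0.545), so a difference between the sexes did not pass. Wild type male 3, the lowest wild type male, weighed on C1ra: without it, C1ra was called lower in mutant than wild type males (-0.93, adjusted p = 0.0147) and higher in wild type males than females (1.55, adjusted p = 0.00322).

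The near copy C1rb ran the other way. It was highest in wild type females, at 2.61, 3.39 and 2.13 scaled FPKM, and all 9 other libraries lay below them. Wild type males had 0.0337, 1.38 and 0.746, mutant females 1.06, 1.42 and 1.17, and mutant males 0.800, a listed 0 and 1.07. C1rb was not called in any of the 6 comparisons. Its largest difference was wild type males below wild type females by 1.56 on the log2 scale (log2 difference -1.56, SE 0.47, adjusted p = 0.106). As a share of the C1ra and C1rb pair, C1rb held 85.2%, 89.7% and 83.8% in wild type females. It held between 44.9% and 55.1% in 7 other libraries, 1.18% in wild type male 1 and 0% in mutant male 2.

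The sum of C1ra and C1rb did not show the gap of C1s1. The sums were 3.07, 3.78 and 2.54 scaled FPKM in wild type females, 2.85, 3.07 and 1.35 in wild type males, 2.21, 2.87 and 2.302 in mutant females, and 1.78, 0.735 and 2.11 in mutant males. Wild type females overlapped wild type males and mutant females in this sum and lay above all mutant males. With each pair of copies summed, the female difference of C1ra turned from 0.92 to -0.29 and was not called (adjusted p = 0.498). Summing C1s1 with C1s2 did not close the gap of C1s1. The sums were 0.0647, 0.118 and 0.136 in wild type females, against 2.296 to 8.88 in the other 9 libraries. C1s2 itself never exceeded 0.614 and was not tested. Whether the division of reads between copies set any of these values was not tested.

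**Figure D2:**
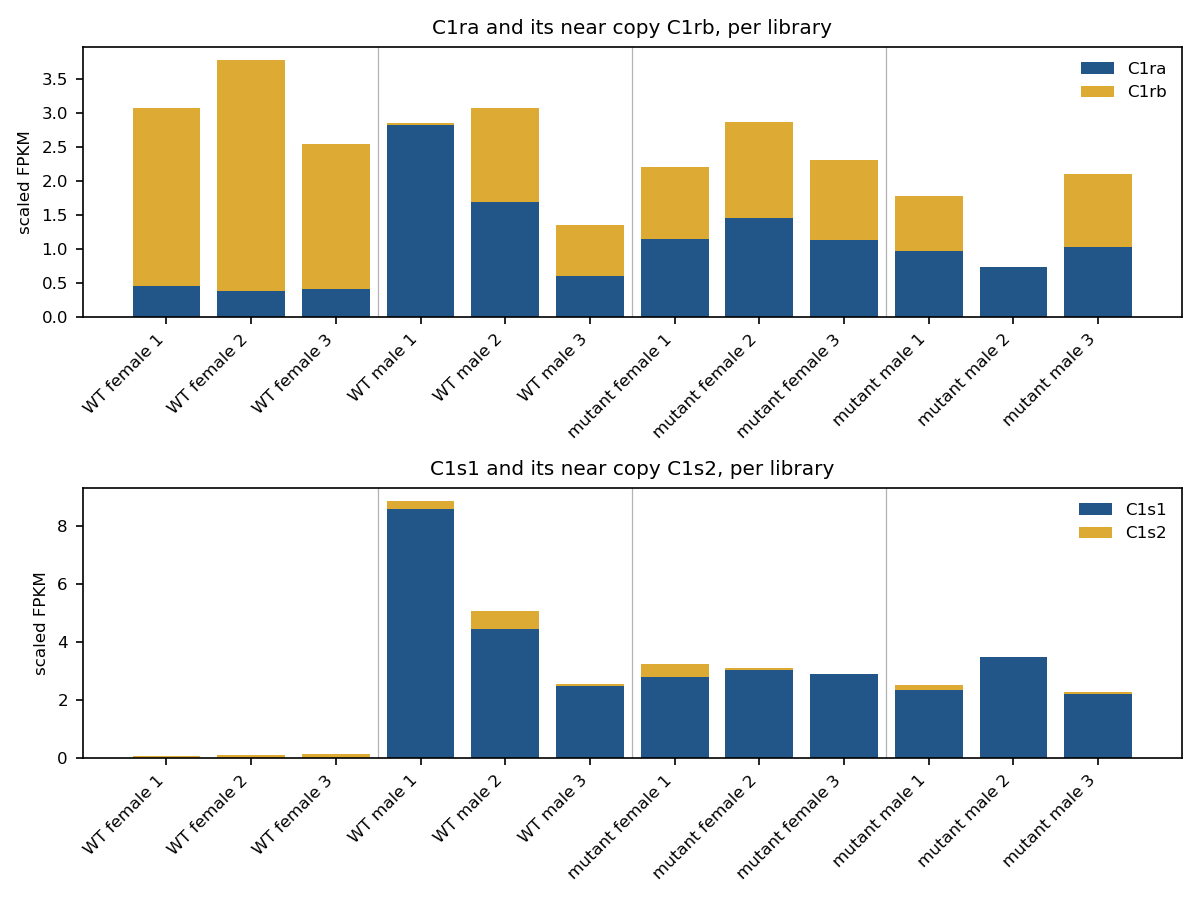
Scaled FPKM of C1ra stacked with C1rb (upper panel) and of C1s1 stacked with C1s2 (lower panel) in each of the 12 libraries, with grey lines between groups. C1rb makes up 83.8% to 89.7% of its pair in wild type females, and the summed C1s1 and C1s2 stays at 0.136 or less there.

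Levels of C1s1 and C1ra moved together across libraries. Over the 12 libraries their Pearson correlation was 0.861 on the log2 scale, and that of C1s1 with C1rb was -0.787, with the 3 wild type females as the shared low or high points. Outside wild type females the level of C1s1 was 2.11 to 4.77 times that of C1ra in the same library. By the same measure, the 5 named genes most like C1s1 among 12983 compared were Enho (0.901), Tbc1d1 (0.884), Arhgef10l (0.884), Eml2 (0.876) and C1ra (0.861). For C1ra they were Fam124a (0.945), Nacc2 (0.924), C1s1 (0.861), Gna11 (0.841) and Tbc1d20 (0.836). Every correlation with C1s1 takes in the 3 wild type females, on whose low values C1s1 was selected. These correlations and the places of C1s1 and C1ra in the lists are therefore descriptions and support nothing about C1s1.

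Genes on both sides of C1s1 were also measured. The 3 nearest tested genes on either side were Pex5, Clstn3 and C1ra, and C1rb, Lpcat3 and Emg1. Among these 6 genes and 6 comparisons, C1ra in females was the only call. Pex5, a peroxisome import receptor, ran from 13.3 to 16.3 scaled FPKM over the 12 libraries, Clstn3 from 3.96 to 7.69, Lpcat3 from 10.6 to 15.2 and Emg1 from 32.2 to 47.6. The antisense gene Gm16567, which overlaps C1s1, was listed at 0 in all 12 libraries.

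The C1q genes exceeded 9 scaled FPKM in every library and were lower in mutant males than in mutant females, where C1qa alone passed the test. They lie in a cluster on chromosome 4, with C1qb at chr4:136607440-136613498, C1qc at chr4:136617115-136620376 and C1qa at chr4:136623228-136626114 (mm39). C1qa had 22.9, 22.9 and 22.0 scaled FPKM in wild type females, 17.4, 19.5 and 14.5 in wild type males, 30.01, 32.85 and 19.12 in mutant females, and 12.3, 13.1 and 15.5 in mutant males. All wild type females exceeded all wild type males, and all mutant females exceeded all mutant males. C1qb had 16.3, 20.1 and 14.99 scaled FPKM in wild type females, 18.3, 17.5 and 9.45 in wild type males, 18.9, 19.8 and 13.3 in mutant females, and 9.66, 9.61 and 12.5 in mutant males. C1qc had 18.2, 19.1 and 17.5, then 16.5, 15.97 and 10.97, then 18.3, 22.7 and 14.8, and last 11.2, 9.92 and 13.95 scaled FPKM in the same order of groups. The mutant males lay below the mutant females for all 3 genes without overlap. How many of all genes separate these groups in this way was not counted, so the separation is only a description.

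C1qa was lower in mutant males than in mutant females by 0.95 on the log2 scale, a fold of 0.519 (log2 difference -0.95, SE 0.18, adjusted p = 0.0109). This comparison called 7.49% of all genes tested. C1qc (log2 difference -0.64, SE 0.18, adjusted p = 0.0541) and C1qb (-0.68, SE 0.24, adjusted p = 0.105) had the same sign and did not pass. The C1qa call was lost when only the mutant libraries were fitted (adjusted p = 0.0883) and without the 3 libraries high in Rn7sk (adjusted p = 0.256, with 1 mutant male library left), at sizes of -0.95 and -0.99. Without wild type male 3, C1qb (adjusted p = 0.0335) and C1qc (adjusted p = 0.0294) were called as well, at the same sizes, and without mutant female 3 C1qc was called (-0.79, adjusted p = 0.0303). In wild type the male minus female differences were -0.40 for C1qa (adjusted p = 0.264), -0.35 for C1qc (adjusted p = 0.337) and -0.22 for C1qb (adjusted p = 0.654). The difference between the 2 sex contrasts of C1qa was -0.55 (95% interval -1.10 to 0.0047, adjusted p = 0.57).

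Genotype moved none of the C1q genes past the test. Mutant minus wild type was -0.32, -0.44 and -0.29 in males for C1qa, C1qb and C1qc (adjusted p = 0.231, 0.206 and 0.279), in a comparison that called 20.3% of all genes. In females it was 0.23, 0.01 and 0.00 (adjusted p = 0.351, 0.984 and 0.988). The 95% interval of the female difference ran from -0.16 to 0.62 for C1qa, from -0.51 to 0.53 for C1qb and from -0.39 to 0.40 for C1qc. Without wild type male 3, C1qb was called lower in mutant males (-0.74, adjusted p = 0.0244) and over both sexes (-0.37, adjusted p = 0.0385), and without mutant female 3, C1qa was called higher in mutant females (0.47, adjusted p = 0.0245).

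**Figure D3:**
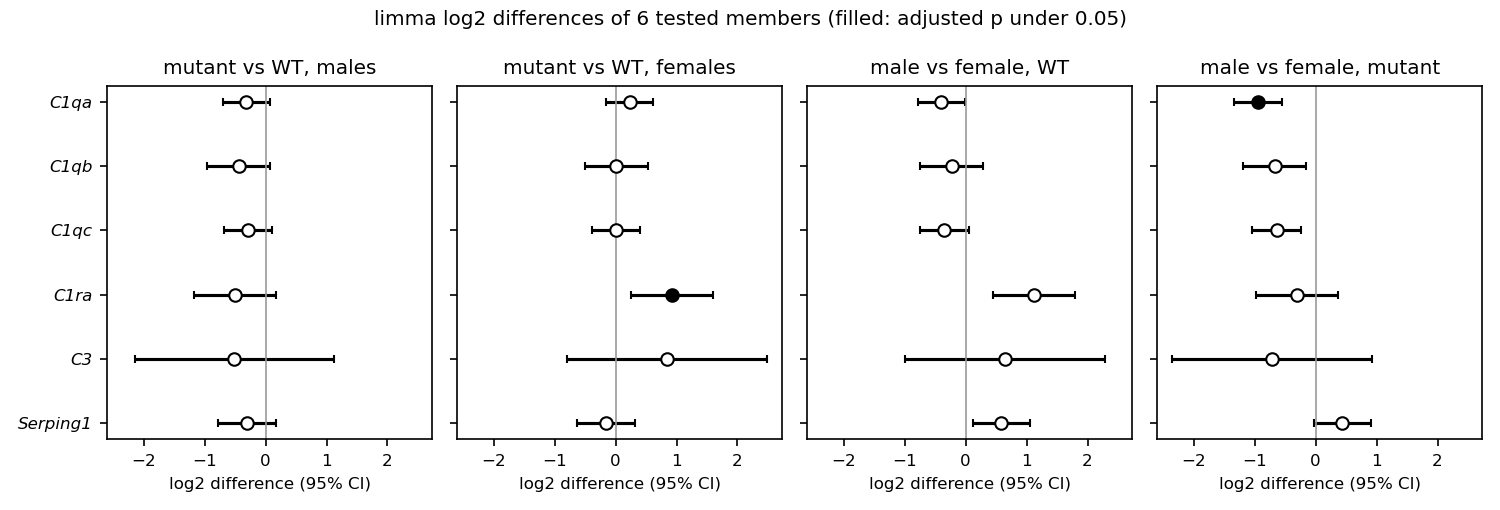
limma log2 differences (points) with 95% confidence intervals (bars) of C1qa, C1qb, C1qc, C1ra, C3 and Serping1 in 4 comparisons; filled points had an adjusted p under 0.05. The filled points are C1ra in mutant versus wild type females (0.92) and C1qa in mutant males versus mutant females (-0.95).

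The 3 C1q genes varied together, with Pearson correlations over the 12 libraries of 0.943 for C1qb and C1qc, 0.925 for C1qa and C1qc, and 0.853 for C1qa and C1qb. The genes most like C1qa were Fbxo16 (0.933), C1qc (0.925), Smpdl3b (0.904), Csrp2 (0.896) and Tyrobp (0.885), the last an adaptor of myeloid cells. The 3 libraries with the lowest mean of the C1q genes, mutant males 1 and 2 and wild type male 3, were among the 4 lowest in other macrophage genes. The summed level of 18 macrophage markers, none of them a complement gene, was 99.4, 115 and 90.4 scaled FPKM in wild type females and 104, 116 and 75.4 in wild type males. It was 99.3, 96.0 and 70.2 in mutant females and 60.8, 61.0 and 90.1 in mutant males. No marker of the list was at 0 in all libraries, and fewer macrophages cannot be told apart from less RNA per macrophage in such bulk samples. Over both sexes 7 of the 17 markers tested were called lower in mutants (Adgre1, Ms4a7, Ptprc, Mrc1, F13a1, Fcer1g and Fcgr3), with a median of -0.44 over the 17, against a median of 0.00 and 40.6% called over all genes.

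The mean level of the 3 C1q genes, set against the macrophage sum of the same library, was highest in mutant females. The ratio was 22.5%, 26.2% and 22.45% there, against 19.3%, 18.04% and 20.1% in wild type females. It was 16.8%, 15.2% and 15.4% in wild type males and 18.15%, 17.9% and 15.5% in mutant males. The mutant females did not overlap any other group, and wild type females lay above wild type males. These ratios were formed after the levels were seen and were not tested, nor was the part of macrophage number in the C1q values.

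**Figure D4:**
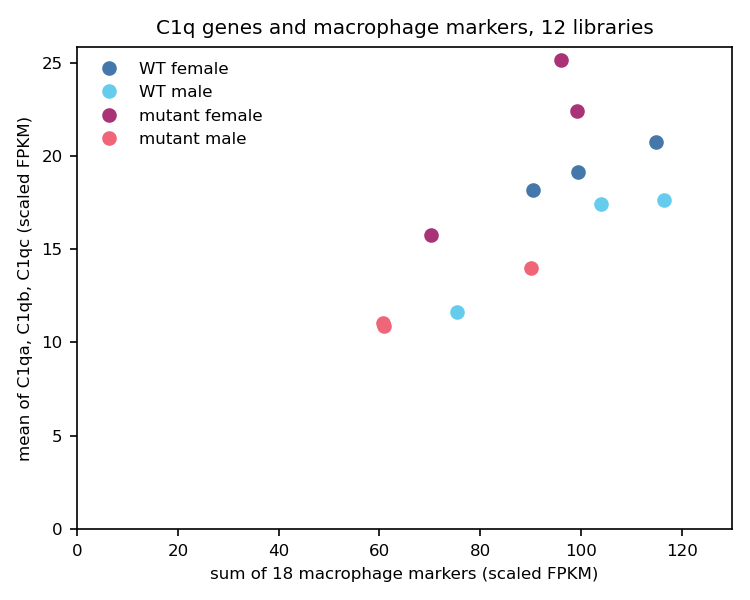
Mean scaled FPKM of C1qa, C1qb and C1qc against the summed scaled FPKM of 18 macrophage markers, with 1 point per library coloured by group. The mutant males 1 and 2 lie lowest on both axes, and the 3 mutant females lie above the other libraries of similar macrophage sum.

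C3, the component on which all complement routes converge, was low and uneven. Wild type females had 1.46, 3.82 and 0.968 scaled FPKM, wild type males 4.38, 4.91 and 1.29, mutant females 12.2, 2.64 and 1.33, and mutant males 1.84, 0.775 and 4.98. Every pair of groups overlapped. C3 was called in none of the 6 comparisons, and its intervals were wide. The mutant minus wild type difference was 0.85 in females (95% interval -0.79 to 2.49, adjusted p = 0.417) and -0.51 in males (95% interval -2.15 to 1.13, adjusted p = 0.666). Male minus female was 0.64 in wild type (adjusted p = 0.691) and -0.72 in mutants (adjusted p = 0.589).

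The mutant female mean of C3, 5.38 ± 5.91 (SD, n = 3), was carried by mutant female 1. That library was also the highest of the 12 in Cfb (2.43 scaled FPKM), which encodes factor B of the alternative pathway, and Cfp (3.55), which encodes its stabiliser properdin. It was highest too in the ficolin gene Fcna (10.1) and in Itgam (3.36) and Itgb2 (2.41), whose products form complement receptor 3. Its sums of epithelial markers (841) and mast cell markers (72.3) were the highest of the 12 as well, and their part in its C3 value was not tested. Among the genes most like C3 over the 12 libraries were Crip1 (0.924), Dok2 (0.923), Gstm2 (0.916) and Cfb (0.902). The summed liver markers were highest in mutant male 3 (55.8) and mutant female 1 (25.4), the libraries with the highest C3 levels. In mutant female 1 that sum came mainly from Apoa1 (18.1) and Afp (5.57), while Alb was 0.0675. Mutant female 3 had a liver sum of 21.1 but a C3 level of 1.33. In wild type male 2, where C3 was 4.91, the liver sum was 0.664. The part of liver RNA in the C3 values was not tested.

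C4b, the gene of the component C4 that C1s cleaves, did not reach 1 FPKM in any library and was not tested. Its levels were 0.0320, 0.0526 and 0.0123 scaled FPKM in wild type females, 0.0861, 0.118 and 0.0180 in wild type males, 0.374, 0.0761 and 0.0353 in mutant females, and 0.00669, a listed 0 and 0.0821 in mutant males. The near copy C4a, whose longest transcript shares 96.14% of aligned bases with that of C4b, ran from 0.0118 to 0.290. Transcripts of the other substrate of C1s, C2, were more abundant, from 1.02 to 5.29 scaled FPKM, and C2 was not called in any comparison.

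Serping1, the C1 inhibitor gene, had the highest mean of the 8 genes in every group but the mutant females, where C1qa exceeded it. Its levels were 27.2, 30.0 and 22.5 scaled FPKM in wild type females, 45.9, 47.7 and 28.9 in wild type males, 18.2, 29.4 and 24.4 in mutant females, and 30.9, 28.1 and 38.2 in mutant males. The sexes overlapped in both genotypes. Males exceeded females by 0.59 on the log2 scale in wild type (SE 0.21, adjusted p = 0.181) and by 0.44 in mutants (SE 0.21, adjusted p = 0.231), and neither passed. Without wild type male 3 the wild type difference was 0.82 and was called (adjusted p = 0.0449). The mutant minus wild type differences were -0.31 in males (95% interval -0.78 to 0.16, adjusted p = 0.338) and -0.16 in females (95% interval -0.63 to 0.31, adjusted p = 0.605). Serping1 lies at chr2:84595731-84605788 (mm39), on the chromosome of Itga6, and 10.1 Mb beyond the end of Hoxd13. The other end of the inversion is not given in the sources used here, so whether Serping1 lies inside it was not determined.

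Of the 57 complement genes listed by role, 25 passed the filter, 26 never reached 1 scaled FPKM and 1, Cfhr3, was listed at 0 throughout. None of the 7 terminal components, which build the membrane attack complex, passed, and the highest value among them was 1.10 scaled FPKM. Counting the 24 tested genes other than C1s1, mutants differed from wild type in 2 genes in males (Cr1l and C3ar1, both lower, median of the 24 -0.30). In females they differed in 5 (C1ra higher; Colec12, Cr1l, Cd55 and Cd93 lower, median -0.03), and over both sexes in 4, all lower (Colec12, Cr1l, Cd55 and C3ar1, median -0.13). The medians of all genes in these 3 comparisons were 0.00, 0.01 and 0.00. Males differed from females in 2 genes in wild type (Clu higher and Cd55 lower), beside 3.18% of all genes. In mutants they differed in 2 (Clu higher and C1qa lower), beside 7.49% of all genes. The change of the mutant effect from one sex to the other was called for 0 of the 24 and for 0.0% of all genes with limma, while 3 of the 24 (Cd93, Colec12 and C1ra) and 1225 of all genes had an unadjusted p under 0.05. As shares of the 24 genes, the counts lay below the shares of all genes called in the 3 genotype comparisons. Without the 3 libraries high in Rn7sk the counts were 0 in males and in both sex comparisons. That setting leaves 1 mutant male library, assumed to vary like the other groups, and it also lowered the calls among all genes, from 2820 to 62 in males and from 1042 to 48 between the sexes in mutants.

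Among initiators, Colec12, a scavenger receptor with a collectin domain, fell in mutant females. It had 22.6, 23.2 and 19.6 scaled FPKM in wild type females and 11.9, 15.9 and 14.4 in mutant females, without overlap (log2 difference -0.62, SE 0.11, adjusted p = 0.00263). In males the values were 21.0, 20.3 and 18.4 in wild type and 16.2, 15.6 and 18.2 in mutants (-0.25, adjusted p = 0.129). Over both sexes the difference was -0.44 (adjusted p = 0.00128). With each library corrected for gene GC content and length, the female difference of Colec12 was -0.35 (adjusted p = 0.0791) and that over both sexes -0.24 (adjusted p = 0.0539), neither called. Masp1, which encodes a protease of the lectin pathway and is related to C1r and C1s, ran from 7.71 to 22.1 scaled FPKM and was not called in any comparison.

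Clu had the largest sex difference among the 24 tested complement genes other than C1s1, in both genotypes. Clusterin, its product, keeps the terminal complex out of membranes and also acts as a chaperone. Wild type females had 16.2, 15.7 and 10.97 scaled FPKM. Wild type males had 75.3, 69.9 and 46.5. Mutant females had 20.2, 9.93 and 9.23 and mutant males 68.0, 56.1 and 59.3. No male overlapped a female. Males were higher by 2.11 on the log2 scale in wild type (4.32-fold, SE 0.27, adjusted p = 0.00212) and by 2.26 in mutants (4.80-fold, SE 0.27, adjusted p = 0.00094). Without the 3 libraries high in Rn7sk, all of them males, the differences were 1.98 and 2.14 with adjusted p = 0.0557 and 0.129, the second with 1 mutant male library left. Genotype made no called difference to Clu in either sex (-0.04 in males, 95% interval -0.64 to 0.57, adjusted p = 0.94; -0.19 in females, 95% interval -0.79 to 0.41, adjusted p = 0.634).

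Among the membrane regulators, Cd55 and Cr1l, which both stop C3 convertases on cell surfaces, fell in mutants over both sexes. Cd55 had 14.1, 15.9 and 13.1 scaled FPKM in wild type females, above every other library. Wild type males had 8.96, 9.19 and 7.40, mutant females 7.09, 8.81 and 8.06, and mutant males 5.33, 4.95 and 8.12. The log2 difference of mutants was -0.81 in females (SE 0.16, adjusted p = 0.00474), -0.47 in males (adjusted p = 0.0644) and -0.64 over both sexes (adjusted p = 0.00135). The female call of Cd55 was lost after the GC and length correction (-0.53, adjusted p = 0.0697). Wild type males were below wild type females by 0.72 (log2 difference -0.72, SE 0.16, adjusted p = 0.037). That call was lost under 12 of the 22 other settings. Among them was the removal of any 1 of the 6 wild type libraries (adjusted p = 0.0720 to 0.158). Others were no filter (adjusted p = 0.0826), FPKM as deposited (0.0653), library sums (0.0533) and a replicate block (0.0648). Leaving out mutant male 3 gave Cd55 calls in males (-0.67, adjusted p = 0.00716) and between mutant males and females (-0.59, adjusted p = 0.0355). Cr1l ran from 15.7 to 18.7 in the 6 wild type libraries and from 12.1 to 14.9 in the 6 mutant ones. Its differences of -0.32 in males (adjusted p = 0.0307), -0.30 in females (adjusted p = 0.0309) and -0.31 over both sexes (adjusted p = 0.00309) turned to 0.16, 0.32 and 0.24, not called, after the GC and length correction. Its call in males was also lost without wild type male 1 or 2 or any mutant male (adjusted p = 0.0539 to 0.106), and that in females without wild type female 1 or 2 or mutant female 2 or 3 (adjusted p = 0.0550 to 0.102).

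2 complement receptor genes fell. C3ar1, the receptor of the C3 fragment C3a, had 1.81, 1.72 and 1.13 scaled FPKM in wild type males, against 0.694, 0.745 and 0.946 in mutant males (log2 difference -0.65, SE 0.18, adjusted p = 0.0269). Over both sexes the difference was -0.58 (adjusted p = 0.00408), and in females it was -0.51 (adjusted p = 0.0541). In females it was called without wild type female 3, wild type male 3 or mutant female 2 (adjusted p = 0.0374 to 0.0447). The call in males was lost without wild type male 1 or 2 or mutant male 1 or 2, with adjusted p of 0.0776 to 0.109. With no filter on expression the male call was lost as well (adjusted p = 0.0772). After the GC and length correction neither the male (-0.42, adjusted p = 0.202) nor the combined difference (-0.31, adjusted p = 0.109) was called. Without the 3 libraries high in Rn7sk, which leaves 1 mutant male, these differences were -0.61 and -0.56. Of 17 macrophage markers tested over both sexes, 7 were called lower in mutants and 1 higher, beside 21.6% and 18.9% of all genes. The part of macrophage content in the C3ar1 values was not tested. Cd93, first described as a C1q receptor and abundant on endothelium, had 20.4, 23.4 and 19.7 scaled FPKM in wild type females and 9.63, 18.7 and 15.5 in mutant females (-0.56, SE 0.19, adjusted p = 0.045). This call was lost under 16 of the 22 other settings, among them the removal of any 1 library other than mutant female 2, and without mutant female 1 the difference was -0.30 (adjusted p = 0.0781). Without mutant female 2, Cd93 was also called over both sexes (-0.35, adjusted p = 0.0331) and between mutant males and females (0.64, adjusted p = 0.0438). The summed endothelial markers were lowest in mutant female 1 too (91.1, against 112.5 to 154.7 in the other 11). Pecam1, Cdh5, Kdr, Tie1 and Emcn were each lowest there, while Tek, Cldn5 and Egfl7 were not. Cldn5 was 17.61 in that library (range 6.718 to 19.82) and Egfl7 16.15 (range 10.65 to 17.31). Tek and Emcn of the 8 endothelial markers were called lower in mutant females, beside 15.9% of all genes. The part of endothelial content in the Cd93 value was not tested.

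**Figure D5:**
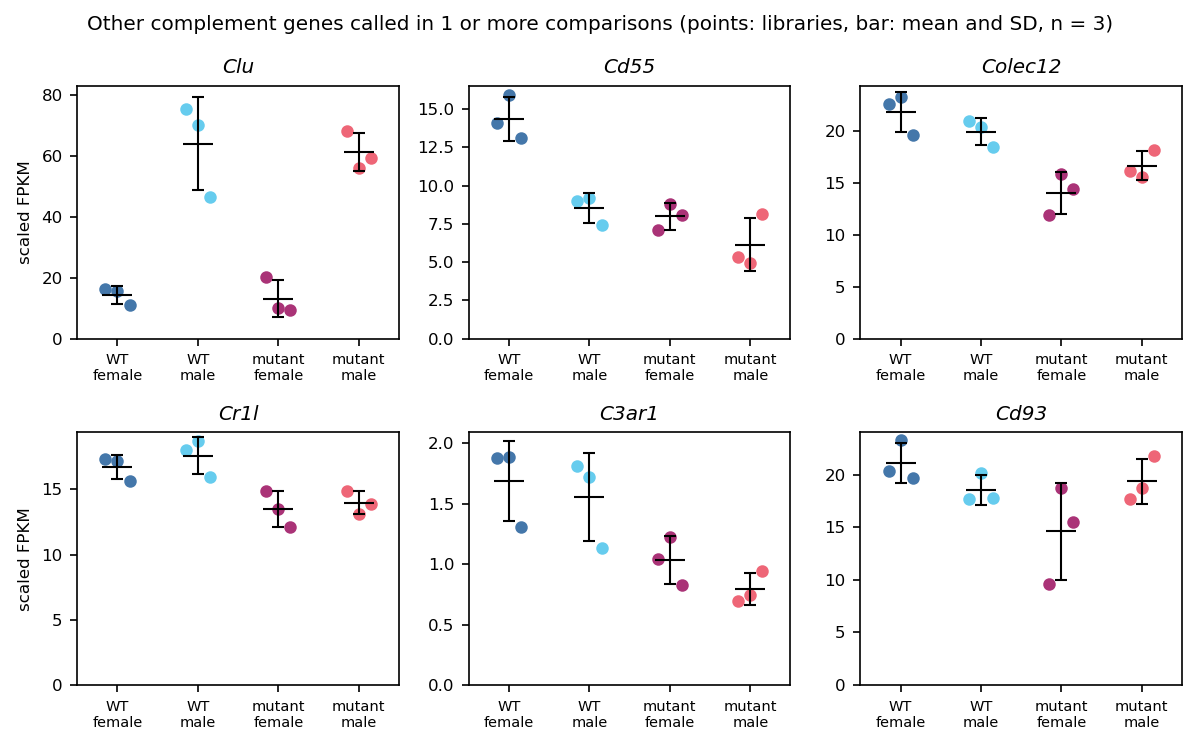
Scaled FPKM of Clu, Cd55, Colec12, Cr1l, C3ar1 and Cd93 in the 12 libraries (points), with the mean and SD of each group of 3 (bars). Clu separates the sexes in both genotypes, Cd55 is highest in the 3 wild type females, and the lowest Cd93 value, 9.63, is that of mutant female 1.

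Markers of other cell types were measured beside the complement genes. Of 12 mesenchymal markers Dcn and Lum were called lower in mutant females, where 15.9% of all genes were called lower, and the summed level ran from 2548 to 5297 scaled FPKM. Of 8 epithelial markers, 3 were called higher in mutant males and 3 in mutant females, beside 8.64% and 12.1% of all genes called higher, with sums of 266 to 366 in wild type and 293 to 841 in mutants. Of 10 liver markers 5 were tested. Afp was called higher over both sexes (2.00, adjusted p = 0.0243), beside 18.9% of all genes, and the sums ran from 0.597 to 55.8. Of the 8 neutrophil markers 3 were tested and none was called by limma, with sums of 1.67 to 32.8. Of the 6 mast cell markers 5 were tested, and only Kit was called, higher in mutant males than in mutant females. In that comparison 3.98% of all genes were called higher, and the median of the 5 mast cell markers was -0.79. Of the 7 red cell markers only Hba-a2 was called, higher in mutant males and over both sexes. All genes called higher there made up 8.64% and 18.9%. Wild type male 3 had 17.98 scaled FPKM of Hba-a2 but 1906 of Hba-a1. The red cell sums ran from 700 in wild type male 1 to 12620 in wild type female 2. The part of these cells in the complement levels was not tested.

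Interferon is a known inducer of several complement genes. Of 16 interferon response genes 13 were tested, with medians of 0.02 in males and -0.03 in females for mutant minus wild type. Isg15 was the only one called in males, higher in mutants (1.14, adjusted p = 0.00337), where 8.64% of all genes were called higher. In wild type, males were below females for Isg15 (log2 difference -1.07, adjusted p = 0.00803) and Bst2 (-1.06, adjusted p = 0.0359), beside 1.23% of all genes called lower.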

How the data were processed

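RNA of 12 urogenital sinus libraries in 4 groups of 3 was used. The deposited table holds FPKM, per the file headers, with 1 column per library (columns of other samples: 0). The authors made it with STAR 2.7.10a and Cufflinks 2.2.1 among other tools (bedtools 2.30.0, cutadapt 4.1), and name the builds mm10 and mm39, per the submitters' processing notes. Per the labels' protocols, libraries were strand-specific, single-end and made from ribosomal-RNA-depleted total RNA. Of the table's genes, 51659 matched GENCODE M21 on GRCm38 and 2.75% of these had the same end, so table positions are given as mm39, with 1 added to starts. The annotation, strand setting and treatment of multiply mapped reads are not given in the sources used here.

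FPKM were scaled per library by median ratios, taken over the 11897 genes that reach 1 FPKM everywhere (divisors 0.749 to 1.13). Relative depth was read from the steps of values under 0.05 FPKM. The 13904 genes reaching 1 FPKM in 3 or more libraries were fitted as log2(scaled FPKM + 0.5) with limma 3.58.1 in R 4.3.3, with 4 group means, an intensity trend and two-sided tests, and the code was tested on simulated data. Samples were grouped by the genotype and sex in the labels. There were 6 comparisons: the mutant difference in males, that in females, their mean, their difference, and the sex difference in wild type and then in mutants. Correlations over 12 libraries are descriptions. Near copies were aligned with Biopython 1.88 in Python 3.11.15.

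The members and lists were chosen with earlier results of these data known. The text names the 8 genes, their near copies, complement genes called in a comparison or with a median over 5 scaled FPKM, the 5 genes most correlated with C1s1, C1ra, C1qa and C3, and the 3 nearest tested genes on either side of C1s1. Some genes that the rule or the lists hold are not reported here. Other complement and marker genes are named only to account for a single library or a list, after their values were seen. Alternatives changed the pseudocount, filter, scaling, samples fitted, replicate block, GC and length correction, and each library. Leaving out the 3 libraries high in Rn7sk and summing near copies were chosen after seeing the data.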

Additional observations from a re-analysis of the deposited data

How the results depend on the processing

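Counts of called complement genes other than C1s1 depended on several choices. In males the count of 2 became 0 with no filter, 1 with a filter of 5 FPKM, 0 after the GC and length correction and 0 without the 3 libraries high in Rn7sk (which leaves 1 mutant male), with 0 to 4 over the left-out libraries. In females the count of 5 became 2 with no filter, 2 with FPKM as deposited and 0 after the GC and length correction, with 2 to 5 over the left-out libraries. Over both sexes the count of 4 became 1 after the GC and length correction, which also lowered the calls among all genes from 5639 to 2387. Between the sexes in wild type the count of 2 became 1 with no filter, with FPKM as deposited and with library sums, and 0 without the libraries high in Rn7sk, with 1 to 3 over the left-out libraries. Between the sexes in mutants it became 1 with only the groups compared and 0 without those libraries, with 2 to 4 over the left-out libraries; the highest counts in males and here came without wild type male 3. A C1ra difference of 0.921 in females became -0.286 with near copies summed, and the Cr1l differences became 0.164, 0.315 and 0.24 after the GC and length correction in males, females and both. Between the sexes in wild type, 3.18% of all genes were called. That share was 1.06% with no filter, 1.83% with FPKM as deposited and 2.58% with library sums. Between the sexes in mutants it went from 7.49% to 1.55% with only the groups compared. The causes of these changes were not tested. Same-numbered libraries did not deviate together (3 of 18 pairs over 0.1, r from -0.226 to 0.317). With a replicate block the counts were 2 in males, 6 in females, 4 over both sexes, 0 for the difference of the mutant effects, 1 between the sexes in wild type and 2 in mutants. The group levels of the 8 genes moved by less than 1 SD in 32 of 32 cases with FPKM as deposited. Of 774 values of tested members under the alternatives, 747 stayed on their side of the threshold with their sign or passed it in neither case. C4b was not tested under the filter and has no difference to vary.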
